A study of Mus musculus with 2 samples.

Results

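Fgfbp1, the gene of a secreted carrier of fibroblast growth factors (FGFs), was examined together with Fgfbp3, the ligands Fgf1 and Fgf2, the receptors Fgfr1, Fgfr2, Fgfr3, Fgfr4 and Fgfrl1, and the receptor adaptor Frs2. These 10 genes were taken by their symbol in the authors' table, out of 26878 genes named on the array, and are covered by 25 of its 56594 probes. Fgfbp1 was chosen by its low signal on the knockdown array, so its value below is a description. The other genes come from the same comparison and are also given as descriptions, with no test.

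The cells were a mouse glioblastoma stem cell line, grown as neurospheres in serum-free medium and derived from a brain tumour induced with the SB transposon. Both groups grew with epidermal growth factor (EGF) and basic FGF (the protein of Fgf2), at 10 ng/ml per the labels, and both had been stably transduced with a lentivirus. In the control group the virus held a non-target short hairpin RNA and in the other a hairpin against Stat5b, a transcription factor switched on by cytokine and growth factor receptors. There was 1 single-colour array in each group, and the comparison asked how lowering Stat5b alters gene expression.

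FGFs are signalling proteins that are held in the matrix by heparan sulphate chains. Carrier proteins such as FGFBP1 release them from the matrix, and the freed ligand binds receptor tyrosine kinases with heparan sulphate as a co-factor. The receptors act through the docking protein FRS2 on the RAS and MAPK pathway, which induces ETS factors and its own inhibitors of the Sprouty and DUSP families. Neural stem cells and glioma stem cells are commonly kept in culture with FGF2 and EGF.

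The probes of Fgfbp1 and Fgfr4, the genes with the largest differences of the set, are shown first because they carry the readout. Each is 60 bases long and the first 30 bases are given, 5′ to 3′, as in the authors' table, with the stretch common to both Fgfbp1 probes in capitals.
Fgfbp1, probe 1 (A_55_P2713911): gtattctTCCATGGACCACAAACCTAGGTG
Fgfbp1, probe 2 (A_55_P2723125): TCCATGGACCACAAACCTAGGTGCATATAA
Fgfr4, probe 1 (A_55_P2120055): gagagacgagaagcctgtgggaacgacaga
Fgfr4, probe 2 (A_51_P408100): ccctccattgcttgttccagcatcttggtg
Fgfr4, probe 3 (A_52_P144363): gaagctgaccagctctgttccttgcagtac
The Fgfbp1 probes share a run of 53 bases, which starts at base 8 of the first and base 1 of the second, so they read nearly the same stretch of the transcript and are not separate readings of it. The longest run shared by any pair of Fgfr4 probes was 8 bases. No other gene of the set had probes that overlapped, the longest shared run being 8 bases.

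The windows around the annotated starts of both genes (250 bases before the start and 30 after it, from RefSeq, build GRCm38.p6) were searched on both strands for the STAT site TTCNNNGAA, the GC box GGGCGG and the TATA box TATAAA. They are shown because both genes were lower after knockdown and a STAT factor was targeted, with GC boxes and TATA boxes in capitals.
Fgfbp1, chr5:43981770-43982049, minus strand: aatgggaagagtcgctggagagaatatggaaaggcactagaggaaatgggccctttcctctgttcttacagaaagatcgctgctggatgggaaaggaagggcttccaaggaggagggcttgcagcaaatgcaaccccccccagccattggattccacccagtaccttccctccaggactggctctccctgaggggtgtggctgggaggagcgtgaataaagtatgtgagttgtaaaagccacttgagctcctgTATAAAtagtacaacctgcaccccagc
Fgfr4, chr13:55152568-55152847, plus strand: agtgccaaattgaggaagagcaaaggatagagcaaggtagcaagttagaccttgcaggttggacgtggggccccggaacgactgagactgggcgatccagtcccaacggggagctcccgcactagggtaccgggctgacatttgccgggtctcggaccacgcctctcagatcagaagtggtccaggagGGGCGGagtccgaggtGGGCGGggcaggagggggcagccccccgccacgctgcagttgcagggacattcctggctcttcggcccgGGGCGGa
The Fgfbp1 window held 1 TATA box, which lay within the 30 bases after the annotated start and not before it. It held no GC box, at 52.9% G and C. The Fgfr4 window held 3 GC boxes, the last of them within the 30 bases after the annotated start, and no TATA box, at 64.6% G and C. Across the 9 windows of the 8 genes of the set that matched the table, 6 held a GC box and 2 a TATA box, against 34.7% and 13.1% of all 32851 windows. The STAT site was in 0 of the 9 and in 7.83% of all windows. A match or its absence describes these letters in this window and says nothing of binding.

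Stat5b itself was lower after knockdown. The brighter of its probes gave processed signals of 1991 in control cells and 498 after knockdown. Its dimmer probe gave 14.7 and 7.49 and was well above background in control cells alone. On both arrays 16354 genes were measured, meaning that at least 1 probe was well above background on each, and their median log2 difference (knockdown minus control throughout) was 0.01. A gene was counted as lower or higher at a log2 difference of 1 or more in size, which is 2-fold. The error given as ± is the scanner software's own and covers no difference between cultures. Measured spreads of the log2 difference were an SD of 0.31 between probes of 1 gene and 0.0558 between spots of 1 probe. The labelled cell type was checked against marker genes. Of 12 neural and glioma stem cell markers 7 had a probe well above background on each of the 2 arrays, among them Nes (processed signal 18174 and 15867) and Vim (96090 and 88538), while Sox2, Fabp7 and Slc1a3 were not well above background in either group. Olig2 was well above background after knockdown alone (6.28 and 53.2), from a spot in the last 64 rows of the array.

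Of the 10 FGF genes, 9 were measured, 2 were lower after knockdown by 2-fold or more and 0 were higher by as much. Without Fgfbp1, which was chosen for its fall, it was 1 of 8. Those lower were the carrier Fgfbp1 and the receptor Fgfr4. Over all genes measured, 2.41% were lower and 3.67% higher by the same rule. The median log2 difference of the 9 was -0.27, and -0.02 without Fgfbp1. Of the 25 probes, 19 passed the background flag on both arrays and 6 on neither. Because RNA from whole cultures was measured, fewer cells of a kind and less RNA per cell cannot be told apart.

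**Figure D1:**
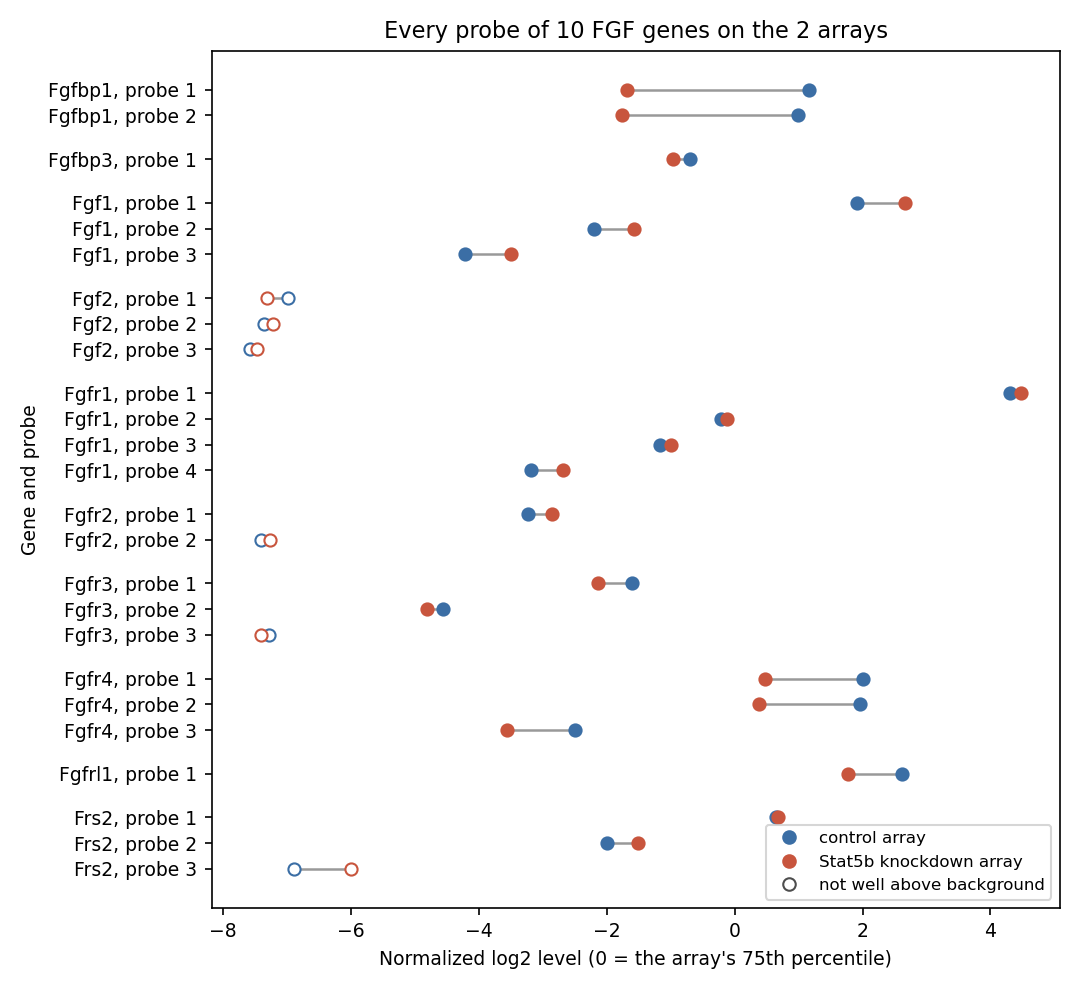
Normalized log2 level of each of the 25 probes (horizontal axis, 0 is the 75th percentile of that array) on the control and the Stat5b knockdown array, 1 array each, with probes of a gene ordered by their control level. Lines join the 2 arrays, open symbols are probes not well above background, and the longest lines among filled symbols are those of Fgfbp1 and Fgfr4.

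The carriers differed from each other. FGFBP1 is a secreted protein best known from epithelia and their tumours, where it mobilises FGF2 from the matrix. The first Fgfbp1 probe read 1102 ± 110.3 in control cells and 154 ± 15.7 after knockdown, as processed signal. The second gave 976 ± 97.7 and 146 ± 14.9. Both probes were low on the knockdown array and remained well above background there, with raw median signals of 189 and 174 over local backgrounds of 31.5 and 30. Their log2 differences were -2.84 and -2.75, and the mean was -2.79 ± 0.15, or 14.4% of control. Of the genes measured, 6 (0.0367%), Fgfbp1 included, lay as far down. Fgfbp3, a related carrier, had 1 probe, with signals of 303 ± 30.5 in control cells and 252 ± 25.3 after knockdown. Its log2 difference was -0.27 ± 0.21, or 82.8% of control, under the spread between probes of 1 gene.

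Among the measured genes brighter than the median gene, the 5 with the log2 difference nearest to that of Fgfbp1 were Chrna1, Prdx3, Strip2, Glipr2 and Slc30a4. Likeness here is the gap between 2 log2 differences from the same pair of arrays. Chrna1, a subunit of the muscle acetylcholine receptor, was 0.30 away at -2.50 ± 0.20. The peroxiredoxin Prdx3 was 0.32 away at -2.47 ± 0.20, from a probe in the last 64 rows of spots on the array, which hold 17% of all probes but 81.1% of the 334 probes that were above background on 1 array alone with a log2 difference of 3 or more. Strip2 was 0.37 away, Glipr2 0.40 and the zinc transporter Slc30a4 0.62. Each of these 5 rested on 1 measured probe.

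Of the ligands, Fgf1 was measured and Fgf2 was not. FGF1 is a ligand that binds every FGF receptor, and FGF2 is the ligand supplied in the medium. The brightest Fgf1 probe read 1862 ± 186 in control cells and 3133 ± 313 after knockdown. The middle probe gave 108 ± 11.2 and 166 ± 16.9, and the dimmest 26.5 ± 3.95 and 44 ± 5.44. All 3 were higher on the knockdown array, with log2 differences of 0.75, 0.61 and 0.73. The mean was 0.70 ± 0.13, or 162% of control, short of 2-fold, and 8.19% of genes measured lay as far up. The Fgf2 probes had signals of 3.9, 3.02 and 2.6 on the control array and 3.11, 3.32 and 2.79 on the knockdown array. None stood clear of background in either group, so no difference is given. This concerns the cells' transcript and not the FGF2 protein in the medium.

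The receptors with a kinase domain differed in direction. FGFR1 is the main receptor of neural stem cells, FGFR2 and FGFR3 are found in the astrocyte and radial glial lineages, and FGFR4 is known above all from liver, developing muscle and some carcinomas. For Fgfr4, the first probe read 1975 ± 197 in control cells and 682 ± 68.3 after knockdown. The second gave 1914 ± 191 and 641 ± 64.1, and probe 3 87.7 ± 9.23 and 42.1 ± 5.27. Each was lower on the knockdown array by more than 2-fold, at log2 differences of -1.54, -1.58 and -1.06, although the probes share no long stretch of sequence. Probe 3, whose accession is not a RefSeq transcript, was the dimmest and had the smallest difference. The mean was -1.39 ± 0.12, or 38.1% of control. Of the genes measured, 138 (0.844%) lay as far down. Among 2696 genes with at least 3 measured probes, 14 (0.519%) had each of them at least 2-fold lower, Fgfr4 included. Among the 7244 with at least 2 the count was 85 (1.17%), Fgfbp1 and Fgfr4 included. For Fgfbp1 this adds nothing, because its probes overlap and are not separate readings, and the gene was chosen for its fall.

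Fgfr1 had 4 measured probes. The brightest read 9802 ± 980.2 in control cells and 11005 ± 1100 after knockdown. The others gave 425 and 454, 220.2 and 248, and 54.4 and 77.2. All 4 were slightly higher on the knockdown array, with log2 differences from 0.10 to 0.50, and the dimmest had the largest. The mean was 0.23 ± 0.10, and 28.3% of genes lay as far up. It was under 0.31, the SD between probes of 1 gene, but that is not the spread of a mean of 4 probes. Fgfr2 had 1 probe above background, with signals of 52.6 ± 5.92 in control cells and 68.2 ± 7.43 after knockdown, which gives a log2 difference of 0.37 ± 0.23. Its other probe was at 2.92 and 3.22, not well above background. Fgfr3 had 2 measured probes, at 161 and 113 and at 21 and 17.6, with log2 differences of -0.51 and -0.25. The mean was -0.38 ± 0.21, and its remaining probe was not well above background. These 3 receptors thus lay within 0.4 of 0 on the log2 scale, Fgfr1 and Fgfr2 above it and Fgfr3 below.

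Fgfrl1 encodes a receptor-like protein that binds FGFs and heparan sulphate but lacks the tyrosine kinase. Its single probe read 3012 ± 301 in control cells and 1687 ± 169 after knockdown. The log2 difference was -0.84 ± 0.20, or 55.9% of control, short of 2-fold. As far down lay 632 genes (3.86%). With 1 probe there was no second reading of this gene.

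FRS2 is the docking protein that links the activated receptors to GRB2 and SHP2. The brightest Frs2 probe read 773 ± 77.3 in control cells and 791 ± 79.2 after knockdown. A second gave 124 ± 12.7 and 173 ± 17.5, at a spot in the last 64 rows. Their log2 differences were 0.03 and 0.48, so the mean of 0.25 ± 0.15 rested on the dimmer probe. The remaining probe, at 4.15 and 7.78, was not well above background.

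**Figure D2:**
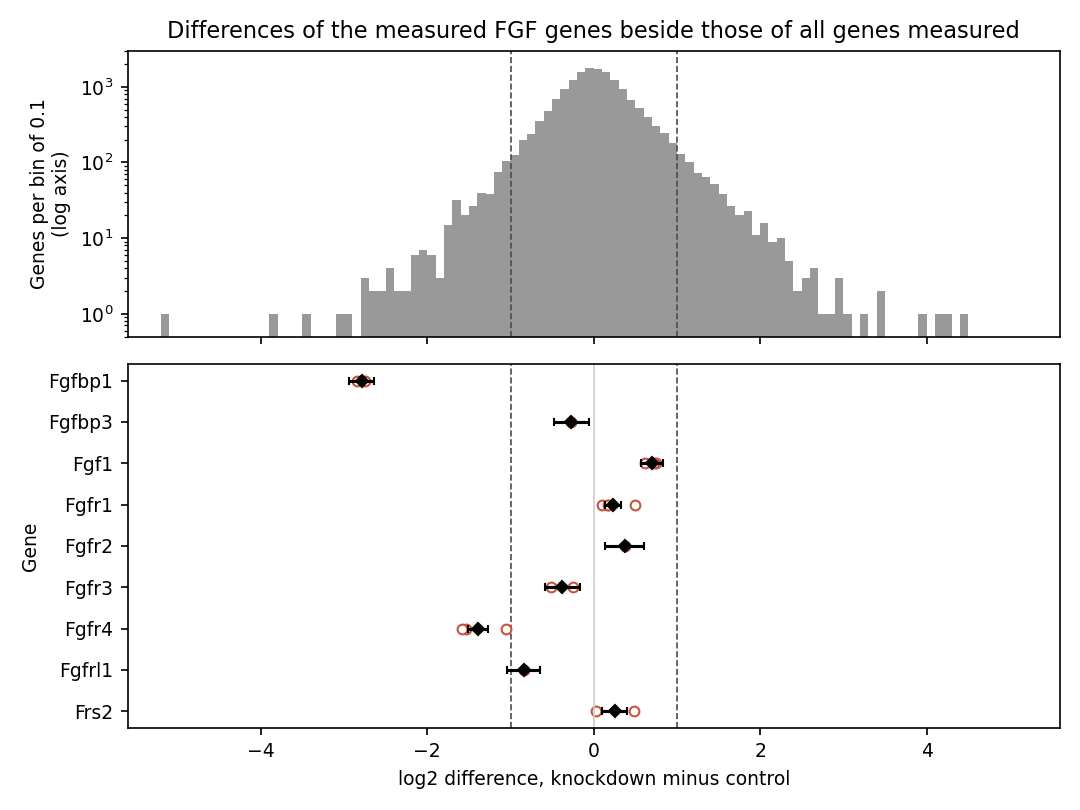
The upper panel counts all 16354 measured genes by their log2 difference, knockdown minus control, in bins of 0.1 on a logarithmic axis. The lower panel gives the 9 measured FGF genes, with open circles for probes, diamonds for gene means and bars for the scanner software's error; dashed lines mark 2-fold, which Fgfbp1 at -2.79 and Fgfr4 at -1.39 pass.

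The 9 measured genes can be ordered by their difference, as Fgfbp1, Fgfr4, Fgfrl1, Fgfr3, Fgfbp3, Fgfr1, Frs2, Fgfr2 and Fgf1 from the lowest to the highest. The gaps between Fgfbp1 and Fgfr4, Fgfr4 and Fgfrl1, Fgfrl1 and Fgfr3, Fgfbp3 and Fgfr1, and Fgfr2 and Fgf1 exceed 0.31, the SD between probes of 1 gene. Neighbours from Fgfr3 to Fgfbp3 and from Fgfr1 through Frs2 to Fgfr2 lie closer than that. This SD belongs to single probes and is not the spread of a gap between gene means. It also covers no difference between cultures, so it does not show which steps of the order are resolved.

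The other genes of the pathway were taken as 5 lists of 79 genes, of which 67 were measured. None of the 67 was at least 2-fold lower or higher, where 6.08% of all genes measured were, and their median log2 difference was 0.05. Below 0 lay 28 and above 0 lay 39. Differences of 0.5 or more were found downward for 9 and upward for 10, against 11.0% and 13.8% of all genes measured.

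Of 20 other ligands 12 were measured, with a median of 0.09 and 7 above 0. Fgf18, a ligand known from bone and lung, was highest at 0.89 ± 0.21 (signals of 79.5 in control cells and 148 after knockdown), followed by the patterning factor Fgf8 at 0.66 ± 0.21. The endocrine ligand Fgf21 was lowest at -0.80 ± 0.23 (78.1 and 44.8), and Fgf5, which limits hair growth, was at -0.77 ± 0.21 (129 and 76.1). Outside the count of measured genes, Fgf15, another endocrine ligand, was well above background in control cells alone (29.7 and 9.68), at least 2.29-fold higher there. The bound takes the lowest signal well above background on the other array, or the probe's own signal if higher. Fgf14, an intracellular FGF that binds sodium channels, also was so in control cells alone (139 and 3.09), at least 10.7-fold higher there. That Fgf14 spot lay in the last 64 rows, and the gene's other probe was not well above background in either group. The remaining 6 ligands, among them Fgf4, Fgf10 and Fgf16, had no probe clear of background in either group.

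Among 20 co-receptor and heparan sulphate genes 17 were measured, with a median of 0.04 and 11 above 0. Sdc4, a syndecan that carries heparan sulphate at the cell surface, was lowest at -0.95 ± 0.20, with signals of 10486 in control cells and 5414 after knockdown. Ndst1, which sulphates the chains, was next at -0.22 ± 0.12. Its brighter probes were at 0.13 and 0.07, so that mean rested on dim probes at -0.67 and -0.42. The glypican Gpc4 was highest at 0.79 ± 0.15 from probes at 0.53 and 1.05, and Sulf2, a sulphatase that trims heparan sulphate, was at 0.59 ± 0.20. The klotho co-receptors Kl and Klb, which endocrine FGFs need, and the glypican Gpc3 were not well above background in either group.

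All 17 transducers were measured, with a median of 0.05 and 10 above 0. The adaptor Grb2 was highest at 0.68 ± 0.20 and the docking protein Gab1 next at 0.59 ± 0.21. Lowest were Ptpn11, which encodes the phosphatase SHP2, at -0.68 ± 0.14, and the kinase Braf at -0.54 ± 0.13. The 2 binding partners of FRS2, Grb2 and Ptpn11, thus stood at opposite ends of this list.

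Of 12 feedback inhibitors 11 were measured, with a median of 0.19 and 7 above 0. Il17rd, a membrane inhibitor of FGF signalling, was highest at 0.64 ± 0.12, but its 3 probes disagreed. The brightest was at 1.15 (signals of 2877 and 6407), and the others, both in the last 64 rows, were at 0.56 and 0.20. Without those rows, or by the brightest probe, Il17rd was at 1.15 and past 2-fold. Spry1 was at 0.50 ± 0.20. Lowest were the MAPK phosphatase Dusp4 at -0.31 ± 0.14 and Spry2 at -0.29 ± 0.15.

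All 10 targets were measured, with a median of -0.11 and 4 above 0. The ETS factor Etv5 was highest at 0.90 ± 0.20, with signals of 9754 in control cells and 18167 after knockdown. Etv1 was at 0.28 ± 0.15, but its probes disagreed. The brighter (6659 and 9791) was at 0.55, and the dimmer (130.4 and 132), in the last 64 rows, at 0.01. Etv4, of the same ETS group, was at -0.12 ± 0.14. Lowest were the AP-1 subunit Fosl1 at -0.81 ± 0.20 (2917 and 1665) and the early growth response factor Egr1 at -0.55 ± 0.20, the latter from the last 64 rows. The FGF-induced genes of this list thus differed in both directions, and none reached 2-fold.

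**Figure D3:**
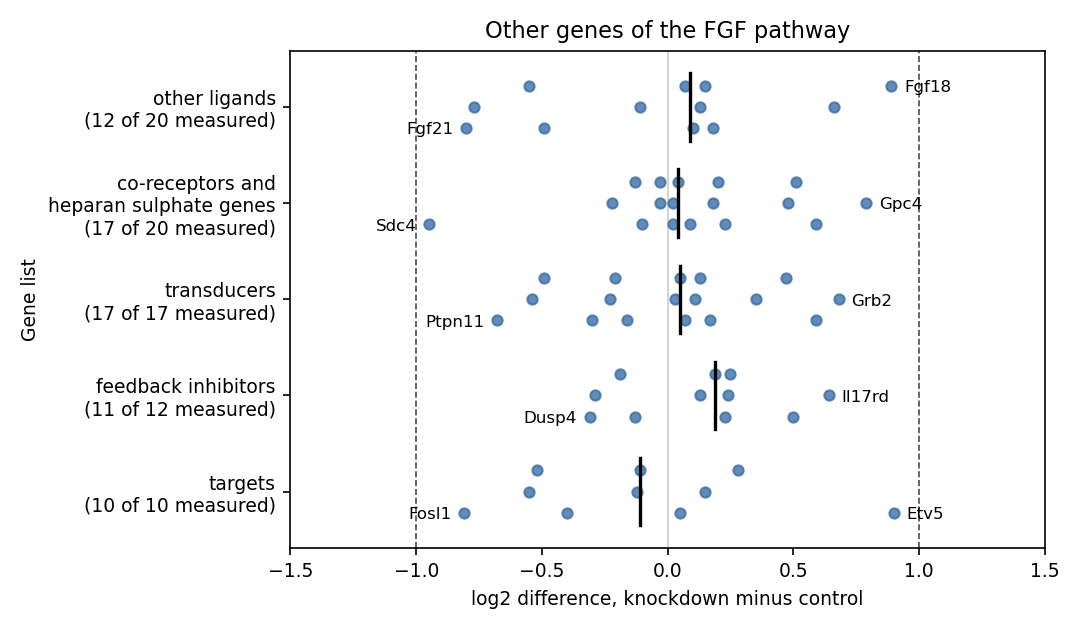
Log2 difference, knockdown minus control, of the 67 measured genes in 5 lists of the FGF pathway; each point is a gene, black bars are list medians and dashed lines mark 2-fold. All points lie between -0.95 (Sdc4) and 0.90 (Etv5), and the medians between -0.11 and 0.19.

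Markers of other cell types differed between the arrays as well. Of 8 epithelial markers 7 had a probe well above background on each array, with summed signals of 18788 in control cells and 17208 after knockdown. Most of that sum came from 1 probe of Krt19 (16061 and 15236), at -0.08 ± 0.20. The median log2 difference of the 7 was -0.08, with 5 below 0 and 2 above. Lowest were Krt8 at -0.94 ± 0.14 and Krt5 at -1.09 ± 0.25, the latter from the last 64 rows. Cdh1 at 0.21 ± 0.20 and Epcam at 0.03 ± 0.27 went the other way. Of 8 fibroblast and mural cell markers 7 were measured and lay above 0, with a median of 0.89, Pdgfrb at 2.19 ± 0.33 and Col1a2 at 1.63 ± 0.19. Pdgfrb rested on 1 probe that was dim in control cells (16.6 and 76.1). A further Col1a2 probe was well above background in control cells alone (15.6 and 2.79). The remaining marker, Lum, went the other way, being well above background in control cells alone (76.8 and 3.21) and at least 5.92-fold higher there. That list's summed signal was 1525 and 3502. For endothelial cells 2 of 6 markers had such a probe on each array, with summed signals of 155 and 128. For microglia and immune cells it was 4 of 8, with 8617 and 10765. Most of that sum came from 1 probe of Itgam (4250 and 4632) and 1 of Ptprc (3288 and 4831). That Ptprc probe lay in the last 64 rows, and the other 6 Ptprc probes were not well above background in either group. The part of these differences in the values of Fgfbp1, Fgfr4 and Fgf1 was not tested.

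**Figure D4:**
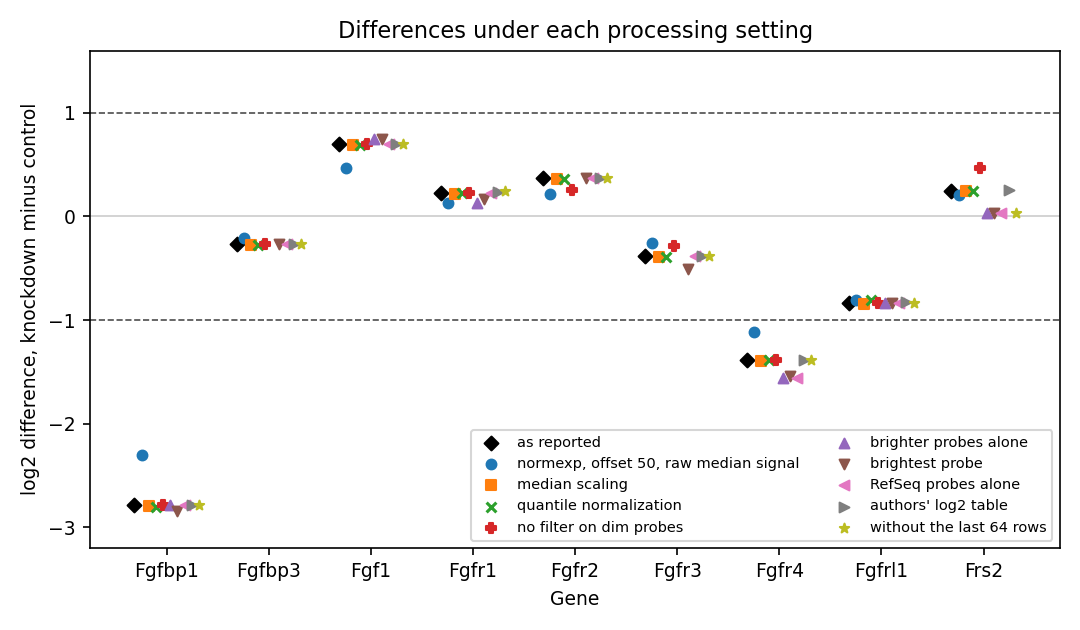
Log2 difference, knockdown minus control, of the 9 measured FGF genes as reported and under 9 other processing settings; dashed lines mark 2-fold. Fgfbp1 lies between -2.84 and -2.30 and Fgfr4 between -1.56 and -1.12 under the other settings, and no other gene of the set passes 2-fold in any.

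Under each of the 9 other settings, Fgfbp1 and Fgfr4 stayed past 2-fold. Several of the 9 kept the same Fgfbp1 probes and signals and so could not move its value. Fgfbp1 came closest to control, at -2.30, under the normexp setting, which took the raw median signal as input, corrected its background by normexp and added an offset of 50. Fgfr4 was at -1.12 under the same setting. An added offset draws fold changes towards 0, and the 3 changes were not separated. Fgf1 ranged from 0.47 to 0.75 and Fgfrl1 from -0.85 to -0.81. Frs2 ranged from 0.03 to 0.47, depending on which of its probes were kept.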

How the data were processed

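Per the file headers, each array was read with Agilent Feature Extraction 12.1.0.3 (protocol GE1_1200_Jun14). The deposited processed signal is an intensity that the software corrected for background and did not scale between arrays. The deposited files also hold its error, the raw median signal and the local background as intensities, and flags of 0 or 1. The authors' deposited log2 table equals log2 of that signal less a constant of each array (8.94 and 8.94), to within 1.75e-06 over 56294 single-spot probes. Its column medians were -3.83 and -3.83.

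Spots flagged as outliers were left out, and 0 were saturated. Signals under 1 were set to 1, log2 values were averaged over spots, and each array's 75th percentile was subtracted (signals of 493 and 494). Of all probes 59.5% and 58.6% were well above background. A gene's value is the mean of those probes that passed the background flag on both arrays. Probes were named by accession, then symbol, through the GRCm38.p6 gene table; 10425 had no name. The headers name build mm9, so probes have no coordinates here. With 1 array per group nothing was tested, and the number of arrays limits the precision. The counting was tested on simulated data holding only differences well past 2-fold, so that test does not bear on genes near the limit.

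Named were all 10 genes, the 2 highest and 2 lowest of each pathway list, any gene of those lists past 2-fold or with such a bound, and the 5 genes nearest to Fgfbp1. Marker genes were named after their values were seen. The members and lists were chosen with earlier results of these data known. Python 3.11.15, pandas 2.3.3 and, for normexp, limma 3.58.1 were used.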

Additional observations from a re-analysis of the deposited data

How the results depend on the processing

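Of 9 alternatives, 8 changed 1 choice. The normexp setting changed 3 together (the raw median signal as input, the background correction and an added offset of 50), and was chosen after seeing the data because the files hold no raw mean signal. Fgfbp1 (-2.84 to -2.30) and the count of 2 genes of the set past 2-fold, both lower, held under all 9. Leaving dim probes in, or keeping brighter probes, RefSeq probes or rows before the last 64, kept the same 2 Fgfbp1 probes. Those settings had to return -2.79 for Fgfbp1. The authors' table, the same signal less a constant, gave -2.79 as well. The 7 measured genes under 2-fold stayed so in all 60 values computed. Of the other pathway genes, 2 passed 2-fold without the filter on dim probes (Fgf14 and Fgf15, each above background on 1 array), 1 with the brightest probe and 1 without probes in the last 64 rows (Il17rd both times, through fewer probes), against 0. Over all genes, 994 differed by 2-fold (394 lower, 600 higher), 358 under the normexp setting (168 and 190; which of its 3 changes lowered the count was not tested), 2282 without the filter (1000 and 1282) and 439 among brighter probes alone (229 and 210). No paired analysis was possible because each group had 1 array. Dim probes such as those of Fgf2 are limited by signal over background, and the median raw signal of negative control spots was 35.5 and 36.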

Other observations

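The genes beside Fgfbp1 and Fgfr4 on their chromosomes, taken as the 3 nearest protein-coding genes with a probe on either side in the order of the GRCm38.p6 gene table, were looked up after the values above were known. Beside Fgfbp1, the stem cell surface gene Prom1 was at 0.01 ± 0.23 from probes at -0.46 and 0.49, and Tapt1 at -0.05 ± 0.21. Ldb2 was at 0.16 ± 0.20. On the other side, the NAD-consuming enzyme gene Cd38 was at 0.94 ± 0.20, Fbxl5, which regulates iron handling, was at -0.19 ± 0.14, and Bst1 was not well above background in either group. Of the 5 measured neighbours of Fgfbp1, none was lower by 2-fold, where 2.41% of all genes measured were. So few genes cannot show a departure from that share. Of the nearest on either side, Cd38 lay above 0, and Prom1 lay near 0 with its probes in opposite directions.

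Beside Fgfr4, the zinc finger gene Zfp346 was 2-fold lower at -1.09 ± 0.16, from probes at -1.38 and -0.80, 1 of them in the last 64 rows. The histone methyltransferase gene Nsd1, the neighbour on the other side, was at -0.46 ± 0.14 from probes at -0.51 and -0.41. Further out, Uimc1 was at -0.41 ± 0.14, Hk3 at 0.28 ± 0.43, Rab24 at 0.09 ± 0.20 and Prelid1 at -0.06 ± 0.12. Both nearest neighbours of Fgfr4 lay below 0, as did 7989 of all 16354 genes measured, and less far than Fgfr4 itself at -1.39.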
